A study of Homo sapiens with 12 samples.

Results

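ESM1 and 7 other secreted regulators of blood vessel growth were followed in 12 poly(A) RNA-seq libraries of T24, an established human bladder carcinoma line. The 8 genes (ESM1, VEGFA, VEGFB, VEGFC, PGF, ANGPTL4, FGF2 and THBS1) were picked by gene symbol from 60603 genes in the count table. All 8 were among the 17775 genes that passed the low-count filter. ESM1 was singled out by its change with inducer in NS1 cells, so its values in treated NS1 cells describe the choice and carry no test.

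The 4 groups of 3 libraries combine a genotype label, WT or NS1, with no treatment or with 5-Ad-IAA, and every group is the same T24 line grown under the same culture conditions. The series concerns AlissAID, in which a binding protein brings an untagged endogenous protein to an auxin-dependent ubiquitin ligase, and 5-Ad-IAA is the auxin derivative that serves as inducer. The labels do not spell out NS1, and whether the NS1 line is a single clone, the dose and the duration of treatment are not given in the sources used here. Nothing in the labels says that the replicates are separate cultures, so p-values measure the spread between these libraries, which may be technical.

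New vessels sprout when endothelial cells respond to secreted factors from neighbouring cells, and tumour cells are a known source of such factors. VEGFA, VEGFB and PGF bind the receptor FLT1, VEGFA also signals through KDR, and VEGFC acts mainly through FLT4 in lymphatic vessels, with neuropilins as co-receptors. ESM1, also called endocan, is a secreted dermatan sulfate proteoglycan best known from endothelial tip cells, where VEGFA raises it. ANGPTL4 and VEGFA are textbook targets of hypoxia-inducible factors, FGF2 is a heparin-binding mitogen of endothelial cells, and THBS1 is a matrix protein that restrains vessel growth.

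The promoters of the pair with the largest differences between the untreated lines are shown first, because the remaining values turn on these transcripts. Promoter sequences from RefSeq (GRCh38.p14) were matched for 7 of the 8 genes, and that of VEGFA was not used here. Each sequence below is the 250 bases before the RefSeq start site, 5′ to 3′ on the gene's strand, and capitals mark TATAAA and ACGTG. The second of these, the core of the hypoxia response element, was searched on both strands, so it reads CACGT where it lies on the opposite strand. The ESM1 sequence is from the minus strand at chr5:54985594-54985843 and the ANGPTL4 sequence from the plus strand at chr19:8363905-8364154.
ESM1: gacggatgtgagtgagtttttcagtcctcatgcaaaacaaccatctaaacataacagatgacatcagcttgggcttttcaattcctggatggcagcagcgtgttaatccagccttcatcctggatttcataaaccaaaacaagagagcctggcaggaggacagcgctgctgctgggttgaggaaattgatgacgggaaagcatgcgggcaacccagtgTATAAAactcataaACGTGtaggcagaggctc
ANGPTL4: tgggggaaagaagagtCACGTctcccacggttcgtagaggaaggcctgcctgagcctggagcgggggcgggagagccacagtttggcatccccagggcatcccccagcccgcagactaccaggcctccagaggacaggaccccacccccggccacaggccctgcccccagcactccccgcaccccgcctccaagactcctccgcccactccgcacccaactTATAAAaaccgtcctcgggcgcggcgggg

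TATAAA, the TATA box core, was searched on the gene's strand only. Its first base lies at position -32 in ESM1 and at position -29 in ANGPTL4, where -1 is the base before the start site. It was absent from the windows of VEGFB, VEGFC, PGF, FGF2 and THBS1, and 6.84% of 34796 distinct RefSeq promoter windows of this length held it. ACGTG begins at position -18 in ESM1 and at position -234 in ANGPTL4, and 18.5% of the windows held it on either strand.

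GGGCGG, the core of the SP1 site, was searched on both strands and was present in 42.6% of windows. The ESM1 window held no match, while those of VEGFB, VEGFC, PGF, ANGPTL4, FGF2 and THBS1 held at least 1. The GC content of the ESM1 window was 47.6% and that of the ANGPTL4 window 68.8%, against a median of 58.0% over all windows. On both strands TGANTCA (the AP-1 site, in 6.59% of windows) and CCGGAA (an ETS core, in 14.5%) had no match in the 7 genes. GGAATG (the TEAD site, in 11.9%) had 1 match, in THBS1, and the NF-kB consensus (in 9.96%) had 1, in VEGFC. A match is a description of the letters and not evidence that a factor binds there.

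ESM1 (ENSG00000164283.13, on the minus strand of chromosome 5 from 54977867 to 54985593 in RefSeq's GRCh38.p14) had the widest range of the 8 genes, taken as a ratio of its highest to its lowest library. In untreated WT cells its normalised level was 14.3, 96.5 and 75.4 CPM (counts of the gene scaled by TMM-normalised library size) in replicates 1, 2 and 3. In treated WT cells it was 17.2, 98.6 and 87.4 CPM. Replicate 1 was thus far below the other replicates in both WT groups, and treated and untreated libraries of a replicate stood close together, at treated to untreated ratios of 1.20, 1.02 and 1.16.

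In untreated NS1 cells ESM1 stood at 10.6, 11.0 and 10.9 CPM, below every WT library. In treated NS1 cells it was 0.520, 1.13 and 0.913 CPM, from 10, 13 and 11 counts. The exact Poisson 95% intervals of those 3 libraries were 0.249 to 0.956, 0.604 to 1.94 and 0.456 to 1.63 CPM, which cover counting error only. By library values the 4 groups therefore fell into 3 separate levels, treated NS1 lowest, untreated NS1 above it, and the WT groups on top and overlapping each other. The gap between untreated NS1 and WT was narrow at replicate 1 of untreated WT, whose interval was 12.8 to 16.0 CPM. The intervals of untreated NS1 replicates 2 and 3, 9.29 to 12.9 and 8.96 to 13.1 CPM, overlapped it.

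The group means of ESM1 for WT were 62.1 ± 42.7 CPM untreated and 67.7 ± 44.1 CPM treated (SD, n = 3). Those for NS1 were 10.8 ± 0.218 CPM untreated and 0.856 ± 0.311 CPM treated (SD, n = 3). The coefficient of variation was 68.7% in untreated WT cells and 2.02% in untreated NS1 cells. As a description, ESM1 in NS1 cells had a treated against untreated log2 fold change of -3.73 (SE 0.92), the lowest of the 17775 genes. Untreated levels were 20.3, 9.67 and 11.9 times the treated ones in replicates 1, 2 and 3. The corresponding interaction of genotype and inducer, which contains that comparison, was -3.85 (SE 1.11), also the lowest of all genes.

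**Figure D1:**
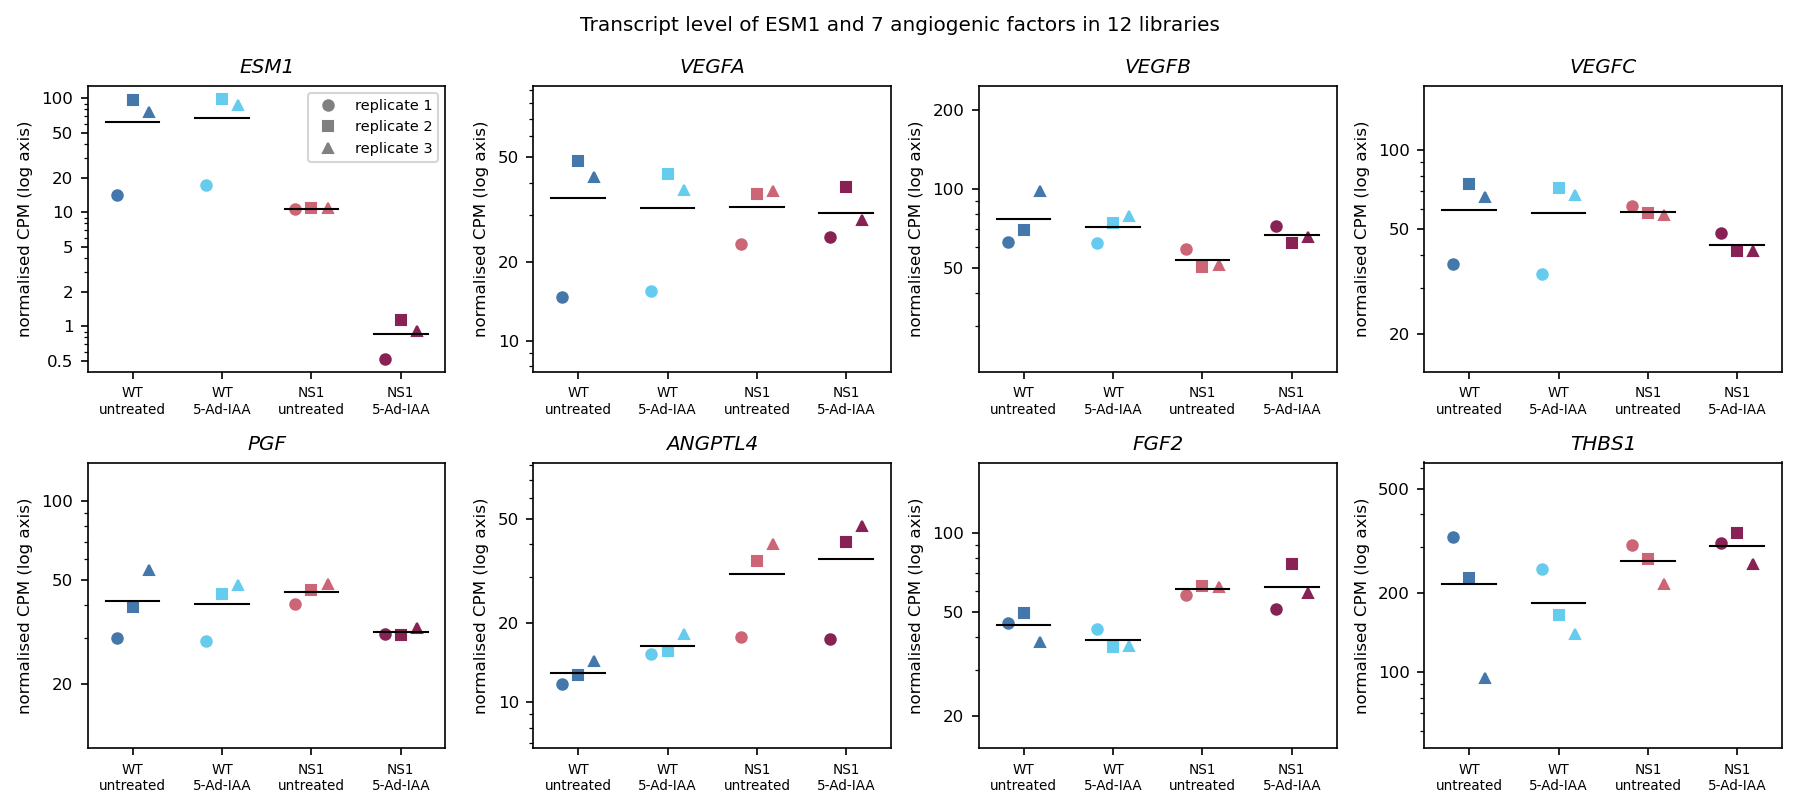
Normalised CPM of the 8 genes in each of the 12 libraries, on log axes; points are single libraries, by group and replicate number, and bars are group means. ESM1 lies between 0.520 and 1.13 CPM in treated NS1 cells, and in both WT groups its replicate 1 lies far below replicates 2 and 3.

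The untreated lines were compared by a test, since ESM1 was not singled out by that contrast. The untreated NS1 libraries were, however, part of the comparison that singled it out, and earlier results of these data were known. The adjusted p is therefore not independent of the choice of the gene. ESM1 was lower in NS1 cells by -2.51 on the log2 scale (SE 0.64, adjusted p = 0.0228 by edgeR's quasi-likelihood test with Benjamini-Hochberg adjustment over all genes), and 66 of the 17775 genes had a lower value. The call depended on single libraries: of the 6 fits that each left out 1 of these libraries, only the fit without WT untreated replicate 1 kept it, at -2.99 (adjusted p = 0.00374), and the others gave adjusted p of 0.0655 to 0.0800 in the same edgeR test. Across the 7 alternatives that kept all libraries (edgeR fits and DESeq2), adjusted p ran from 2.65e-52 to 0.0228. The lowest came from edgeR with no low-count filter, and the others gave 0.00465 to 0.0228. Without the filter the SE of ESM1 was 0.160, against 0.645 in the main fit. That adjusted p therefore does not reflect the spread between the WT libraries.

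Because ESM1 is an endothelial gene, markers of other cell types were read beside it. Of 12 endothelial markers, EMCN had no count in any library, and KDR, TEK and CLDN5 reached at most 1, 2 and 3 counts in a library. The summed level of the 12 was 29.8 to 39.3 CPM in untreated WT, 30.9 to 38.3 in treated WT, 11.9 to 16.1 in untreated NS1 and 13.0 to 19.8 in treated NS1 libraries. EGFL7 contributed most to the sum, at a mean of 21.7 CPM in untreated WT and 8.79 in untreated NS1 cells, so the sum was lower in NS1 cells but not lower again with inducer. All libraries are of the T24 line, and in bulk RNA fewer cells expressing a marker and less of its RNA per cell cannot be told apart. The summed level of 15 epithelial markers was 4398 to 6081 CPM in untreated WT and 5243 to 6024 in treated WT libraries. It was 4133 to 7662 in untreated NS1 and 5202 to 11171 in treated NS1 libraries. In untreated WT cells KRT7, KRT8 and KRT18 stood at 2131, 1877 and 1098 CPM, KRT19 at 214, PPARG at 53.4, GATA3 at 33.0 and UPK2 at 1.85. KRT17 was at 8.62 and EPCAM at 3.03 CPM there. CDH1, UPK1A and CDH3 reached at most 2, 5 and 10 counts in a library, and KRT5, TP63 and UPK3A were at 0 in all libraries. Between the untreated lines edgeR called EPCAM lower (-1.76, SE 0.41, adjusted p = 0.0155) and KRT19 higher (0.78, SE 0.21, adjusted p = 0.0312) in NS1 cells. No other of the 9 tested epithelial markers was called there, where 12.5% of all genes were. Between the treated lines edgeR called 4 of the 9 higher in NS1 cells, where it called 13.6% of all genes higher. The summed level of 5 fibroblast markers was 2.55 to 7.64 CPM in untreated WT, 2.67 to 6.13 in treated WT, 2.47 to 5.38 in untreated NS1 and 8.27 to 21.7 in treated NS1 libraries, so it was highest in the group where ESM1 was lowest, with DCN at 0 in every library. PDGFRB, a receptor of pericytes and fibroblasts, rose with inducer in NS1 cells (2.38, SE 0.62, adjusted p = 0.0374 by edgeR), from a mean of 2.31 to 11.8 CPM. Among the other markers PECAM1, of endothelium (3.19, SE 0.75, adjusted p = 0.0251 by edgeR), and GATA3, of urothelium (1.34, SE 0.32, adjusted p = 0.0281 by edgeR), rose there as well. They were 1 of 6 tested endothelial and 1 of 9 tested epithelial markers, where 6.15% of all genes were called. TIE1, ESAM and ERG had negative and EGFL7 and ROBO4 positive values there, all uncalled. Between the treated lines edgeR called 4 of the 6 endothelial markers lower in NS1 cells, where 28.2% of all genes were called in either direction. The summed blood cell markers were 0.432 to 0.945 CPM in untreated NS1 and 1.14 to 2.01 CPM in treated NS1 libraries, against 1.27 to 3.00 CPM in untreated WT libraries. The part of these markers in the ESM1 result was not tested.

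Among the VEGF ligands, VEGFA, the main driver of endothelial sprouting (ENSG00000112715.21, chromosome 6, 43770211 to 43786487), had the same order of replicates as ESM1 in WT cells. Its levels were 14.7, 48.3 and 42.1 CPM in untreated WT and 15.4, 43.1 and 37.5 CPM in treated WT cells. In NS1 cells they were 23.3, 36.1 and 37.1 CPM without inducer and 24.8, 38.5 and 28.7 CPM with it. All 4 groups overlapped, with means from 30.7 to 35.0 CPM, and no pair of neighbours in that order differed beyond its spread. Its untreated difference between the lines was -0.11 on the log2 scale (SE 0.41, adjusted p = 0.894 by edgeR's quasi-likelihood test), and its treated difference -0.05 (SE 0.41). Exons of VEGFA share 188 bases with an antisense gene.

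VEGFB, a ligand of FLT1 (ENSG00000173511.9, chromosome 11, 64234584 to 64239264), was at 62.7, 69.4 and 98.1 CPM in untreated WT and 61.9, 74.3 and 78.5 CPM in treated WT cells. In NS1 cells it was 59.0, 50.4 and 51.2 CPM without inducer and 72.4, 62.3 and 65.7 CPM with it. Untreated NS1 libraries lay below all other libraries. Between the untreated lines VEGFB was lower in NS1 cells by -0.52 on the log2 scale (SE 0.16, adjusted p = 0.0471 by edgeR's quasi-likelihood test). That call held only in the fit without WT untreated replicate 1 when single libraries were left out (-0.65, adjusted p = 0.0225), and the others gave adjusted p of 0.0549 to 0.169 in the same edgeR test. With only the compared groups fitted, adjusted p in edgeR was 0.0853.

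VEGFC, the lymphatic ligand (ENSG00000150630.4, chromosome 4, 176683538 to 176792922), was at 36.9, 74.7 and 66.6 CPM in untreated WT and 33.7, 71.7 and 67.3 CPM in treated WT cells. It was at 61.2, 57.5 and 56.5 CPM in untreated NS1 and 48.2, 41.5 and 41.4 CPM in treated NS1 cells. The NS1 groups did not overlap, treated being lower in each replicate at ratios of 0.788, 0.721 and 0.733, while each WT group had libraries below both NS1 groups and above both. PGF, the placental ligand of FLT1 (ENSG00000119630.14, chromosome 14, 74941830 to 74955764), also had NS1 groups that did not overlap. Its levels were 30.0, 39.3 and 54.8 CPM in untreated WT and 29.2, 44.4 and 47.7 CPM in treated WT cells. In NS1 cells they were 40.6, 45.9 and 48.3 CPM without inducer and 31.0, 30.9 and 32.9 CPM with it. The treated to untreated ratios of PGF in NS1 cells were 0.763, 0.673 and 0.681, so VEGFC and PGF were lower in treated NS1 cells by amounts far smaller than that of ESM1. For VEGFB the ratios pointed the other way, at 1.23, 1.24 and 1.28.

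ANGPTL4, a secreted inhibitor of lipoprotein lipase (ENSG00000167772.12, chromosome 19, 8364155 to 8374370), was at 11.7, 12.7 and 14.4 CPM in untreated WT and 15.3, 15.7 and 18.2 CPM in treated WT cells. In NS1 cells it was 17.7, 34.5 and 40.0 CPM without inducer and 17.5, 40.9 and 46.8 CPM with it. Here the NS1 groups were the variable ones, with replicate 1 low, and the untreated WT libraries lay below all others. Between the untreated lines ANGPTL4 was higher in NS1 cells by 1.25 on the log2 scale (SE 0.33, adjusted p = 0.0271 by edgeR's quasi-likelihood test). Among the fits that left out 1 library, only that without NS1 untreated replicate 1 kept the call (1.53, adjusted p = 0.0101), and the others gave adjusted p of 0.0600 to 0.103 in the same edgeR test.

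FGF2 (ENSG00000138685.15, chromosome 4, 122826682 to 122898236) was at 45.1, 49.6 and 38.4 CPM in untreated WT and 43.1, 36.6 and 36.9 CPM in treated WT cells. It was at 57.7, 62.7 and 62.1 CPM in untreated NS1 and 51.2, 76.3 and 59.0 CPM in treated NS1 cells, so every NS1 library was above every WT library. The untreated difference of 0.45 on the log2 scale (SE 0.14) missed the threshold in edgeR's quasi-likelihood test, at adjusted p = 0.0568, and passed it in DESeq2, at adjusted p = 0.0340. Exons of FGF2 share 804 bases with NUDT6 on the opposite strand, 11.9% of the exonic length of FGF2, and strand use in the counting is not given in the sources used here.

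THBS1, the inhibitor of the set (ENSG00000137801.10, chromosome 15, 39581079 to 39599466), was followed in the same 12 libraries. Its levels were 327, 229 and 95.0 CPM in untreated WT and 247, 166 and 140 CPM in treated WT cells. In NS1 cells they were 306, 270 and 218 CPM without inducer and 310, 341 and 259 CPM with it. Replicate 1 of THBS1 was the highest in both WT groups, opposite to ESM1 and VEGFA, and only the treated lines did not overlap. Exons of THBS1 share 448 bases with FSIP1 and 411 bases with THBS1-AS1, 4.89% and 4.49% of its exonic length, both on the opposite strand.

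Levels can be set against each other only per length, here as mean CPM per kilobase of the longest coding transcript in GENCODE release 29. In untreated WT cells VEGFB led at 55.6, followed by VEGFC at 28.8, ESM1 at 28.6, THBS1 at 27.9 and PGF at 21.5, with VEGFA at 9.91, ANGPTL4 at 6.88 and FGF2 at 6.55 CPM per kilobase. ESM1 and VEGFC had near-equal means and the same order of replicates, with a wider gap between replicates for ESM1. In untreated WT cells ESM1 was at 6.61, 44.5 and 34.8 CPM per kilobase in replicates 1, 2 and 3, and VEGFC at 17.9, 36.2 and 32.3. In untreated NS1 cells ESM1 was the lowest of the 8, at a mean of 4.98 CPM per kilobase, and in treated NS1 cells it was at 0.395.

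Set side by side, the 8 genes did not move together. With inducer in WT cells 0 of 8 were called by edgeR, as were 0% of all genes tested, with 94 genes and none of the 8 at an unadjusted p under 0.05 and no call by DESeq2. The log2 fold changes of the 8 ran from -0.24 (THBS1, SE 0.33) to 0.34 (ANGPTL4, SE 0.33), all at adjusted p = 1.00. ANGPTL4 was the only one of the 8 whose WT groups did not overlap, at treated to untreated ratios of 1.31, 1.23 and 1.26, and 3.41% of all genes had groups that did not overlap. These SEs leave the pairing of libraries by replicate number out. With separate blocks for the replicate numbers of each line the SE of ANGPTL4 was 0.0950, and again 0 of all genes were called.

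Between the untreated lines 3 of 8 were called, ANGPTL4 higher and ESM1 and VEGFB lower, against 12.5% of all genes tested. Groups did not overlap for 4 of 8, against 31.0% of all genes. The median log2 fold change of the 8 was 0.06, against 0.00 over all genes. Without replicate 1 in any group 5 of the 8 were called, and without replicate 2 or replicate 3 none was. Over all genes the calls went from 2222 in the main fit to 3466, 204 and 182 without replicates 1, 2 and 3. The loss of calls was thus not particular to the 8 genes.

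The 3 comparisons that hold the treated NS1 libraries are given as descriptions, because ESM1 was singled out by its change in those libraries. These comparisons also share the treated NS1 libraries with each other. With inducer in NS1 cells 1 of 8 passed the call, ESM1, where 6.15% of all genes did; with a block for each replicate number it was 2 of 8, where 13.6% of all genes did, and with separate blocks for the numbers of each line 4 of 8, where 25.9% did. The groups did not overlap for 4 of the 8, VEGFB higher and ESM1, VEGFC and PGF lower, where this held for 27.2% of all genes. Log2 fold changes were 0.32 for VEGFB (SE 0.16), -0.42 for VEGFC (SE 0.27) and -0.51 for PGF (SE 0.21), while VEGFA was at -0.07 (SE 0.41) and FGF2 at 0.03 (SE 0.14).

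Between the treated lines 3 of 8 passed, where 28.2% of all genes did. ESM1 stood at -6.37 (SE 0.88), ANGPTL4 at 1.09 (SE 0.33), and FGF2 at 0.67 (SE 0.14). THBS1, at 0.72 (SE 0.33), did not pass, and ANGPTL4 passed in 1 of the 6 fits that each left out 1 of these libraries, that without NS1 treated replicate 1 (1.42). For the interaction 0 of 8 passed in edgeR and 1 in DESeq2, with 1 of the 8 at an unadjusted p under 0.05, where 0.0225% of all genes passed; with the block for each number it was 1, where 3.57% of all genes did, and with the block within each line 4 of 8, where 14.0% did. The interaction was 0.42 for VEGFB (SE 0.22), -0.37 for VEGFC (SE 0.38) and -0.48 for PGF (SE 0.29), each far smaller in size than that of ESM1.

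**Figure D2:**
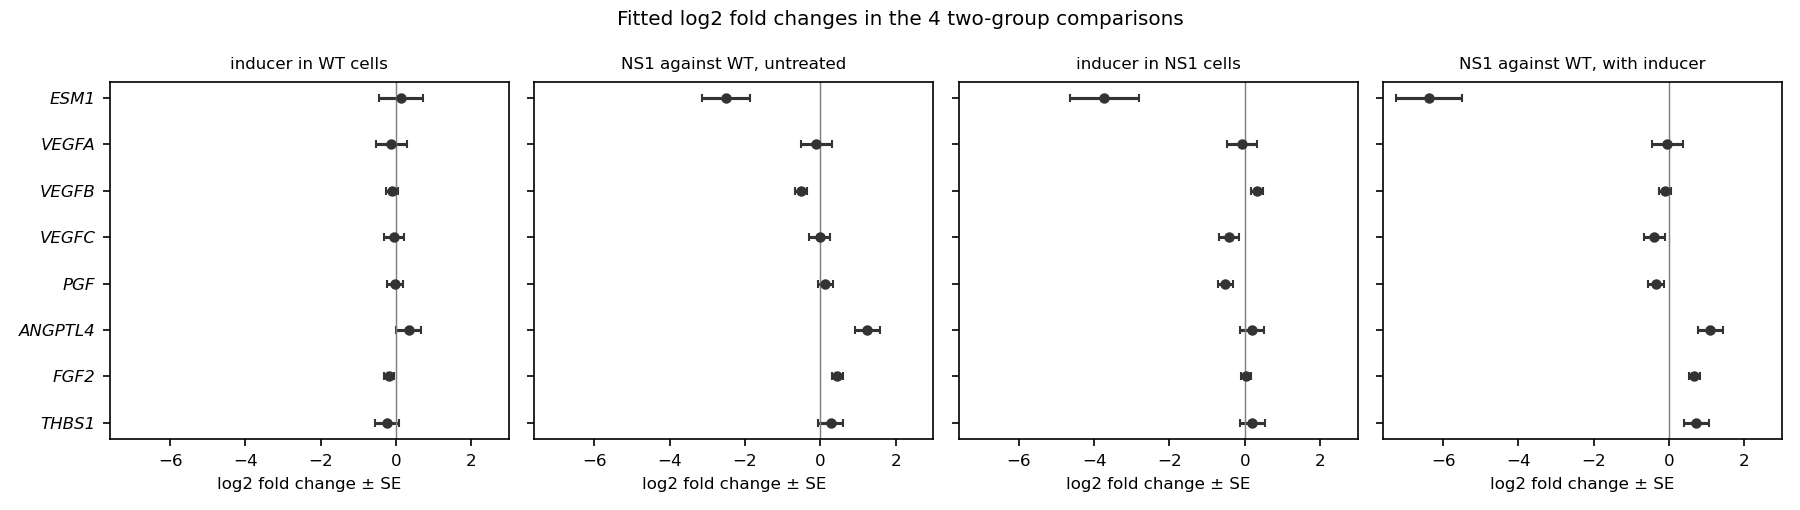
Log2 fold changes (horizontal axis) of the 8 genes in the 4 comparisons of 2 groups, with bars of 1 standard error from the edgeR fit of all 12 libraries. ESM1 lies apart in the comparisons with NS1 cells, at -2.51 between the untreated lines and -3.73 with inducer, while every value with inducer in WT cells is between -0.24 and 0.34.

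Replicate 1 stood apart from replicates 2 and 3 for several of the 8 genes, and the labels give no batch. The mean of replicates 2 and 3 was 6.00 times replicate 1 for ESM1 in untreated WT cells and 5.41 times in treated WT cells. A gap at least as large as that of ESM1 was seen in 40 of 16520 genes with a mean of at least 1 CPM, or 0.242%. For VEGFA the ratios were 3.08 and 2.62, and for VEGFC 1.92 and 2.06. THBS1 was the reverse, with replicate 1 at 2.02 and 1.62 times the other replicates.

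In NS1 cells VEGFA and THBS1 kept the direction of these gaps at smaller sizes. VEGFA had ratios of 1.57 without and 1.36 with inducer, and replicate 1 of THBS1 was at 1.25 and 1.03 times the other replicates. ESM1 had ratios of 1.03 without and 1.97 with inducer, VEGFC 0.931 and 0.859, and ANGPTL4 2.10 and 2.50, against 1.16 and 1.11 for ANGPTL4 in WT cells. In both WT groups replicate 1 was the lowest of 3 for 6 of the 8 genes, which held for 23.5% of all genes tested. In both NS1 groups it was the lowest for 4 of 8, which held for 28.7% of all genes.

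**Figure D3:**
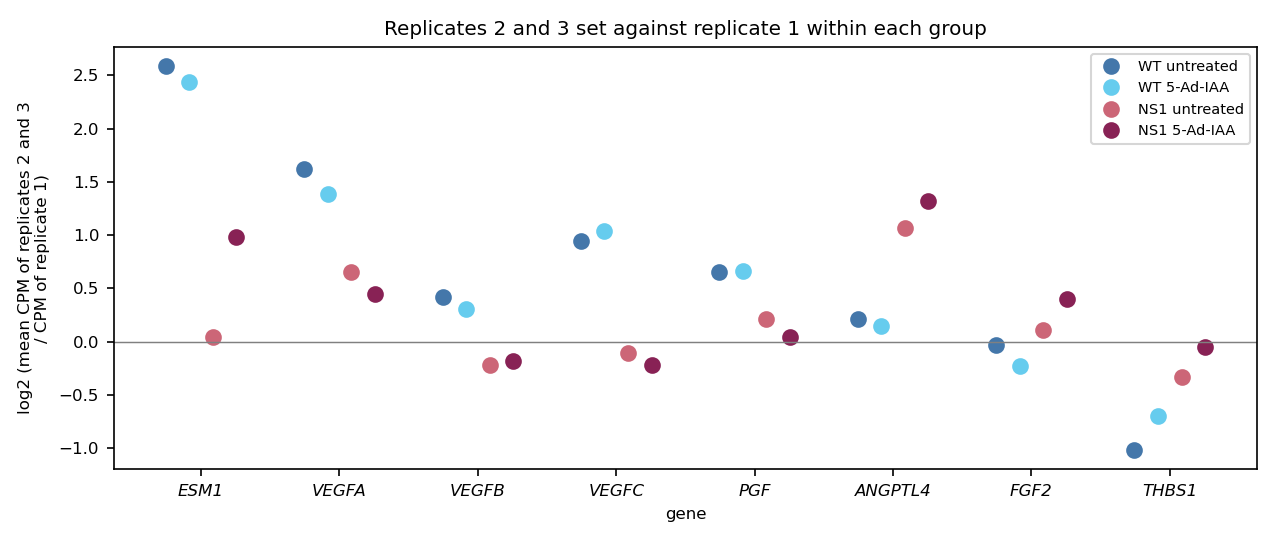
Log2 ratio of the mean of replicates 2 and 3 to replicate 1 for each of the 8 genes, by group. ESM1, VEGFA and VEGFC are highest in the WT groups and ANGPTL4 in the NS1 groups, while THBS1 is below 0 in all 4 groups.

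The genes whose pattern lay nearest to ESM1 were found by the root mean square difference of log2 CPM, centred on each gene's mean, over the 12 libraries, among the 16520 genes with a mean of at least 1 CPM. They were CSF3 (0.85), a granulocyte growth factor, IL1B (0.94), an inflammatory cytokine, BCL2A1 (1.17), a survival protein, GFPT2 (1.23), an enzyme of hexosamine synthesis, and RGCC (1.25), a cell cycle regulator. ESM1 itself varied by 2.49 around its own mean on the same measure. CSF3 was at 4.45, 67.2 and 46.9 CPM in untreated WT cells and 0.926, 4.80 and 4.14 CPM in untreated NS1 cells, and at 0.260, 0.698 and 0.830 CPM in treated NS1 cells. IL1B was at 57.6, 278 and 276 CPM in untreated WT, 23.4, 39.1 and 43.8 CPM in untreated NS1 and 11.5, 15.4 and 14.0 CPM in treated NS1 cells. Both shared the low replicate 1 of the WT groups with ESM1, and both had it in untreated NS1 cells as well, where ESM1 did not. GFPT2 had a smaller gap between replicates, at 8.29, 9.61 and 11.6 CPM in untreated WT, 2.78, 1.74 and 1.63 CPM in untreated NS1 and 1.09, 0.436 and 0.664 CPM in treated NS1 cells.

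For VEGFA the nearest gene was PPP1R15A (0.12), a stress-induced phosphatase subunit, and for ANGPTL4 it was GAS5 (0.23). For THBS1 the nearest were FSIP1 (0.06) and THBS1-AS1 (0.14), which overlap its exons, so that reads of THBS1 counted for them cannot be told apart from their own. For VEGFC it was SERPINB8 (0.13), for PGF HMGA1 (0.11) and for FGF2 ZCCHC14 (0.09).

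**Figure D4:**
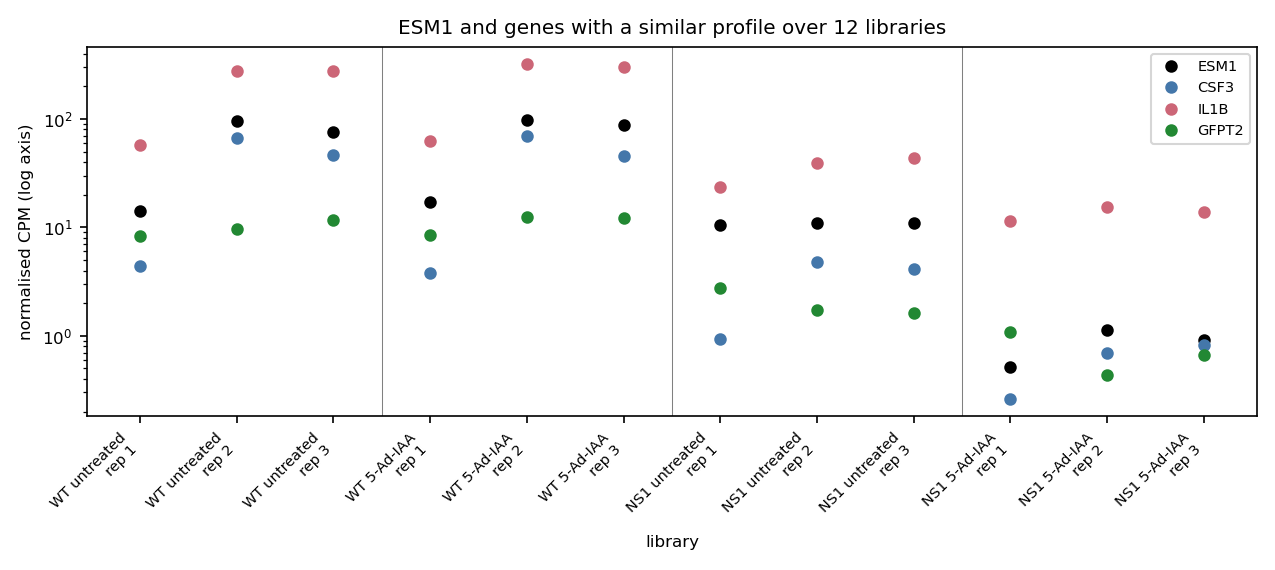
Normalised CPM, on a log axis, of ESM1 and of 3 of the 5 genes nearest to it in pattern (CSF3, IL1B and GFPT2) in each of the 12 libraries; points are single libraries. All 4 genes are lowest in treated NS1 cells, where ESM1 lies between 0.520 and 1.13 CPM, and ESM1, CSF3 and IL1B have a low replicate 1 in the WT groups.

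The receptors through which the VEGF ligands act were nearly silent in these cells. KDR, FLT4 and FLT1 reached at most 1, 2 and 7 counts in a library, and the ligand VEGFD 1 count, and none of them passed the filter. Of the 6 genes of this list only the neuropilins NRP1 and NRP2 were tested. NRP2 was lower in NS1 cells than in WT cells without inducer (-0.88, SE 0.24, adjusted p = 0.0321 by edgeR) and rose with inducer in NS1 cells (0.89, SE 0.24, adjusted p = 0.0498 by edgeR). NRP1 was lower in NS1 than in WT cells with inducer (-1.16, SE 0.38, adjusted p = 0.0354 by edgeR). None of these calls was made without replicate 2 or without replicate 3, and with inducer in NS1 cells those fits called 0 of all genes. Between the untreated lines the same fits called 204 and 182 of all genes. With the separate blocks for each line both neuropilins were called with inducer in NS1 cells.

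Of 15 tested genes on a list of 18 other angiogenic ligands, 9 were called between the untreated lines, 6 higher and 3 lower in NS1 cells, where 5.45% of all genes were called higher and 7.05% lower. The higher ones were led by EDN1, the vasoconstrictor endothelin (2.73, SE 0.47), ANGPT1, a TEK ligand (2.40, SE 0.26), PDGFD (2.08, SE 0.32) and PDGFB (1.95, SE 0.45), with edgeR adjusted p between 1.60e-04 and 0.0148. EDN1 went from a mean of 4.05 CPM in untreated WT to 27.9 CPM in untreated NS1 cells, and PDGFB from 16.6 to 63.8 CPM. The lower ones, named after their values were seen, were MDK (-1.66, SE 0.14), PDGFA (-1.03, SE 0.12) and TYMP (-0.90, SE 0.19). The median of the 15 was 0.43, against 0.00 over all genes. On the list 3 were called without replicate 2 and 3 without replicate 3, where 204 and 182 of all genes were. With inducer in NS1 cells only the NOTCH ligand JAG1 was called, 1 of 15 where 6.15% of all genes were, and it fell by 0.70 on the log2 scale (SE 0.16, adjusted p = 0.0235 by edgeR). With the separate blocks for each line 8 of the 15 were called, where 25.9% of all genes were.

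Of 11 tested inhibitors of vessel growth, 4 were called between the untreated lines, where 12.5% of all genes were. VASH1 (0.99, SE 0.18), ADAMTS1 (0.92, SE 0.27) and COL18A1 (0.73, SE 0.22), the precursor of endostatin, were higher in NS1 cells, and TIMP3 (-1.60, SE 0.32) was lower. None of the inhibitors was called without replicate 2 or without replicate 3, where 204 and 182 of all genes were. With inducer in NS1 cells SPRY2, a feedback inhibitor of receptor tyrosine kinase signalling, was the only one called and fell by 0.79 on the log2 scale (SE 0.21, adjusted p = 0.0414 by edgeR); with the separate blocks for each line 6 of the 11 were called, where 25.9% of all genes were.

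All 16 hypoxia-responsive genes were tested. Between the untreated lines KDM3A was higher (0.44, SE 0.13) and CA9 (-1.55, SE 0.47) and PGK1 (-0.54, SE 0.11) were lower in NS1 cells, 3 of 16 where 12.5% of all genes were called, with a list median of -0.00. Without replicate 2 or without replicate 3 none was called, where 204 and 182 of all genes were. With inducer in NS1 cells 0 of the 16 were called by edgeR, 2 had an unadjusted p under 0.05 and 1 was called by DESeq2, where edgeR called 6.15% of all genes. With the separate blocks for each line 3 of the 16 were called, where 25.9% of all genes were. Among 7 genes of oxygen sensing, EPAS1, the hypoxia-inducible factor of endothelium, was higher in untreated NS1 than in untreated WT cells (0.99, SE 0.16, adjusted p = 0.00188 by edgeR), with means of 652 and 328 CPM. HIF1AN was the only other one called there (0.40, SE 0.08), so 2 of the 7 were called, where 12.5% of all genes were. Of the 7, 1 was called without replicate 2 and 0 without replicate 3, where 204 and 182 of all genes were. Of the 7, 0 were called with inducer in NS1 cells by edgeR or DESeq2, with 2 at an unadjusted p under 0.05. With the block for each replicate number 1 of the 7 was called, where 13.6% of all genes were. With the separate blocks for each line 2 of the 7 were called, where 25.9% of all genes were.

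Of 6 tested targets of the PPAR receptors, which also drive ANGPTL4, only FABP4, a fatty acid carrier, was called. It was higher in untreated NS1 than in untreated WT cells (1.07, SE 0.17) and fell by 1.80 on the log2 scale with inducer in NS1 cells (SE 0.18, adjusted p = 5.73e-04 by edgeR). ANGPTL4 itself was at 0.19 (SE 0.32) with inducer in NS1 cells. Among 6 tested FGF receptors and cofactors SDC1 fell by 0.50 on the log2 scale with inducer in NS1 cells (SE 0.13), and FGFR1 was higher in treated NS1 than in treated WT cells (0.60, SE 0.14). Of 7 tested receptors of THBS1, LRP1 rose with inducer in NS1 cells (0.97, SE 0.24), and 4, ITGAV, LRP1, ITGB3 and CALR, were higher in treated NS1 than in treated WT cells, where 13.6% of all genes were called higher, led by ITGAV (1.60, SE 0.24). In the main fit each of these lists had 1 call with inducer in NS1 cells, where 6.15% of all genes were called. The separate blocks for each line called 2 of the 6 PPAR targets there. They also called 2 of the 6 FGF receptors and cofactors and 4 of the 7 receptors of THBS1, where 25.9% of all genes were called. Without replicate 2 or without replicate 3 no gene of these lists was called with inducer in NS1 cells, as held for all genes. With inducer in WT cells no gene of these lists was called by edgeR or DESeq2, and none had an unadjusted p under 0.05.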

How the data were processed

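Raw read counts per gene, deposited by the authors as one table of 60603 Ensembl identifiers, were the only unit used, and they are not normalized. The submitters' processing notes name hg38, STAR 2.7.3a and featureCounts 1.6.4; the annotation release and the strand setting are not given in the sources used here. Per the labels' protocols, libraries of poly(A) RNA were prepared with NEBNext Ultra II reagents for a NextSeq run. Libraries held 10593934 to 20266996 counts, and no 2 libraries looked like one deposited again (closest pair, chi-square of 3.03 per degree of freedom).

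Symbols came from a name table (60261 identifiers matched). Counts were fitted with edgeR 4.0.16 in R 4.3.3 (filterByExpr, TMM, one quasi-likelihood model of 12 libraries, Benjamini-Hochberg adjustment over 17775 genes, called at 0.05, two-sided). The SE is the size of the log2 fold change divided by the square root of F. Alternatives were DESeq2 1.42.0, other scalings and filters, replicate blocks and left-out libraries. The edgeR step was tested on simulated data.

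Same-numbered untreated and treated libraries of one line deviated together (correlations of 0.75, 0.38 and 0.26 in WT and 0.71, 0.39 and 0.38 in NS1 cells), so the numbers pair the inducer comparisons. The main fit had no block for these numbers, so its SEs and p-values for inducer effects leave the pairing out. Counts with the blocks are given beside them for NS1 cells and the interaction. The 8 genes and all gene lists were chosen with earlier results of these data known. Listed genes could be named if called, at most the 4 largest changes per list and comparison with a mean of at least 1 CPM, with the exceptions given in the text; other called genes stand only in counts. Nearest genes were named by the smallest difference.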

Additional observations from a re-analysis of the deposited data

How the results depend on the processing

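With inducer in WT cells 0 of the 8 genes were called under every alternative. Between the untreated lines the 3 calls became 0 to 5 when a library or a replicate number was left out. The calls over all genes, 2222 in the main fit, then ran from 182 to 3466, so the number of calls moved for all genes as well. With inducer in NS1 cells the 1 call became 2 with no low-count filter, 2 with the replicate block, 4 with the block within each line and 3 with only the compared groups, and 0 to 3 with libraries left out. Of all genes, 6.15% were called there in the main fit, 13.6% with the replicate block and 25.9% with the block within each line. Between the treated lines the 3 calls among the 8 genes became 5 with no filter and 1 to 6 with libraries left out. For the interaction 0 became 1 with no filter, 1 with the replicate block, 4 with the block within each line, 1 with DESeq2 and 0 to 1 with libraries left out. Of all genes, 0.0225% passed for the interaction in the main fit, 3.57% with the replicate block and 14.0% with the block within each line. With no filter the SEs of the 8 genes with inducer in WT cells were 0.138 to 0.165, against 0.145 to 0.586 in the main fit.

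Replicate numbers did not pair the lines: correlations of deviations were 0.14, 0.07 and 0.19 untreated and 0.15, 0.12 and 0.01 treated. With the replicate block FGF2 passed between the untreated lines (edgeR adjusted p = 0.0265), as it did with no filter (0.0220) and without replicate 1 (0.0322), and VEGFC changed sign to 0.04.

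Leaving out libraries turned the sign of several small differences. With inducer in WT cells the log2 fold changes ran from -0.35 to 0.61 for ESM1, -0.51 to 0.22 for VEGFA, -0.23 to 0.12 for VEGFB, -0.30 to 0.23 for VEGFC, -0.22 to 0.22 for PGF and -0.59 to 0.18 for THBS1. With a replicate number left out they were 0.06 to 0.23 for ESM1, -0.17 to -0.10 for VEGFA and -0.08 to -0.02 for VEGFC. THBS1 was then at -0.43 to -0.09, while VEGFB (-0.19 to 0.04) and PGF (-0.14 to 0.08) changed sign there as well. Between the untreated lines, with a library or a replicate number left out, log2 fold changes ran from -0.50 to 0.20 for VEGFA, -0.31 to 0.20 for VEGFC, -0.07 to 0.38 for PGF and -0.07 to 0.71 for THBS1. With inducer in NS1 cells they ran from -0.26 to 0.10 for VEGFA, -0.10 to 0.52 for ANGPTL4 and -0.14 to 0.15 for FGF2, and between the treated lines from -0.40 to 0.23 for VEGFA. The cause was not tested.

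Without replicate 2 ESM1 was at -2.04 (edgeR adjusted p = 0.252) and ANGPTL4 at 1.15 (0.258) between the untreated lines, and without replicate 3 VEGFB was at -0.27 (0.421). Called ligands between the untreated lines, under alternatives chosen after seeing the data, were 3 without replicate 2 or 3 and 7 to 12 otherwise. Without replicate 2 and without replicate 3 the calls over all genes were 204 and 182. At 10 to 13 counts, the level of ESM1 in treated NS1 cells is limited by depth.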
